A study of Mus musculus with 30 samples.

Results

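The kinesin motor genes of the mouse hippocampus were followed in 30 mice, in groups with or without methylmercury (MeHg) and with or without a selenium label. Members were chosen by gene symbol: every gene of the table whose Ensembl identifier carries a symbol that starts with Kif and a digit or c, or that is Klc1, Klc2, Klc3 or Klc4. This gave 43 of the 21412 genes, and all 43 had enough counts to be tested in every comparison. The 4 axonal transport motors Kif5a, Kif5b, Kif5c and Kif1a are also described apart from the rest. The family was selected with earlier results of these data known, and Kif5a was singled out for its lower level at the high dose. Its HD against Ctr values, and those of every contrast that includes the HD and Ctr mice, are therefore given as a description with no test, and counts of members past a threshold in those contrasts are over the other 42. Whether its Se_HD level was also known at that choice is not recorded, so its tests there are no independent support.

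All mice were BALB/c males, and whole hippocampus RNA of 5 mice per group was sequenced, each mouse as 1 library. Ctr mice were fed an unspiked diet, and the diets of LD and HD mice held 0.28 and 5 mg MeHg per kg of feed. These diets were given for 11 weeks to mice that arrived at 2 to 3 weeks of age and were housed singly, and cysteine, with which the MeHg was mixed, was added to all 3 feeds including that of Ctr. The Se_Ctr, Se_LD and Se_HD groups carry a selenium label beside the same dose names, and the series title names selenium-methionine, but their doses and exposure time are not stated in the sources used here. How the selenium was given is not stated either, and these groups are called the selenium diet below for short. The hippocampus was labelled as the tissue, and 8 markers of its neurons (among them Prox1, Wfs1 and Spink8) were present in all groups, with sums of 8688 to 11944 normalized counts in Ctr and 8023 to 14170 in HD. Markers of the choroid plexus, which borders the hippocampus, varied widely in every group, from 767 to 30808 in Ctr and from 6900 to 28964 in HD. The median of their sum was 10724 in Ctr and 26666 in HD, and 14032 in Se_Ctr and 28098 in Se_HD. All 6 were higher in both high-dose groups, with a median log2 fold change of 1.42 in HD, where 1 had an unadjusted limma p under 0.05, and 0.73 in Se_HD, where none had, and their part in the results below was not tested. Tissue was taken whole, so that fewer neurons and less RNA per neuron cannot be told apart for any gene below. Libraries are named by the number in their labels. A normalized count is the number of reads on a gene divided by the size factor of the library, and reads on genes ranged from 5768208 to 11510521 per library with a median of 9351470.

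Kinesins are motor proteins that walk along microtubules and use ATP to carry vesicles, mitochondria, mRNA granules and cytoskeletal proteins, in most cases away from the cell body. Kinesin-1 is built of a pair of heavy chains, which are the motor and come from Kif5a, Kif5b or Kif5c, and a pair of light chains from the Klc genes, which bind cargo. Kinesin-3 motors such as Kif1a carry synaptic vesicle precursors and dense core vesicles, the kinesin-2 proteins Kif3a and Kif3b form a motor with the adaptor Kifap3, and another part of the family moves chromosomes and spindles in dividing cells.

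The levels spanned a wide range. Averaged over the 30 libraries, 13 members had 1000 normalized counts or more, 8 had between 100 and 1000, 12 had between 10 and 100, and 10 had fewer than 10. To compare genes, levels were divided by exon length. Kif5a, which is used by neurons, was the highest member with a mean of 2158 normalized counts per kb of exon, followed by Kif5c with 1314 and Kif1a with 1205. Kifc2, a neuronal motor of the kinesin-14 class that moves towards the minus end, had 688 per kb and the light chain Klc1 had 637 per kb. Kif5b, the heavy chain that most cell types express, ranked 9th of the 43 with 299 per kb. The 4 axonal motors together held 57.8% of all normalized counts on the family. At the other end, Kif14 and Kif2c, which act in cytokinesis and at mitotic microtubule ends, had 0.371 and 0.602 per kb, and both were at 0 in at least 1 library.

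**Figure D1:**
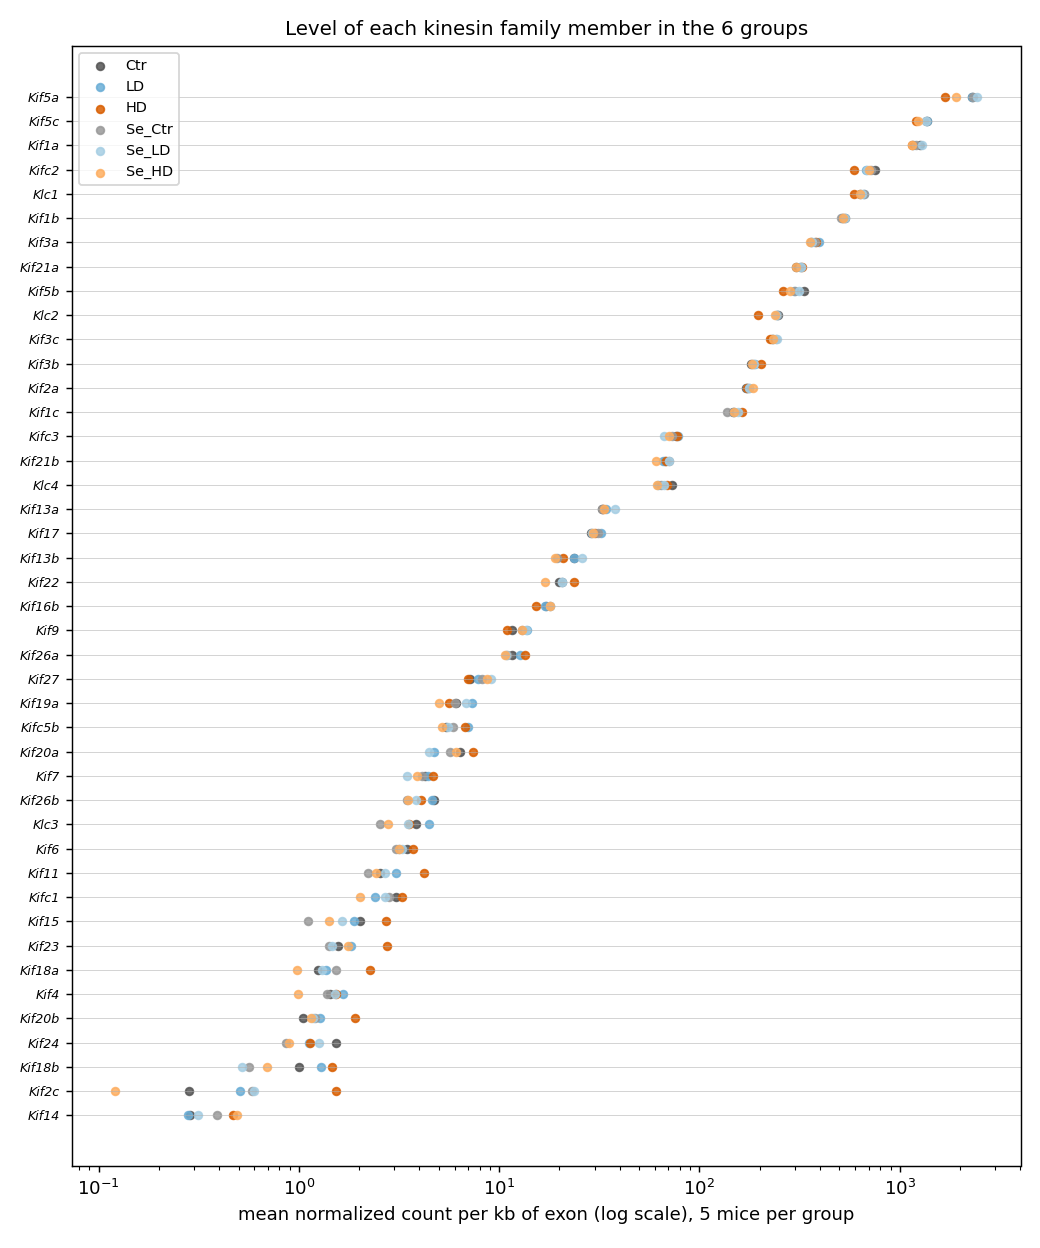
Mean normalized count per kb of exon (log axis) of each of the 43 members, with 1 point for each group of 5 mice. The 3 highest members are Kif5a, Kif5c and Kif1a; the HD and Se_HD points of Kif5a lie below its other 4 points, at 1688 and 1900 per kb, and the low members at the foot spread most between groups.

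The spread between mice of a group followed these levels. Within groups, the coefficient of variation of the normalized count was 8.10% for Kif5a, 9.88% for Kif5b, 9.63% for Kif5c and 6.09% for Kif1a, where counting of reads alone would give 0.822%, 2.11%, 1.02% and 0.986%. For the mitotic motor Kif18a it was 71.0%, against 25.9% from counting, and for Kif2c it was 112% against 59.1%. Much of this spread came from HD library 21, without which Kif18a had 26.2% against 28.0% from counting and Kif2c had 86.1% against 66.8%.

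Kif5a encodes the heavy chain of kinesin-1 that carries neurofilaments and other axonal cargo, and it lies on chromosome 10 from 126662755 to 126700136 on the minus strand of NCBIM37. In the 5 Ctr mice it had 16635, 14678, 14019, 16186 and 15878 normalized counts, and in the LD mice 15600, 13807, 17063, 16569 and 14261. In the HD mice it had 11438, 12285, 12737, 8211 and 12029. Every HD mouse was thus below every Ctr mouse, and the HD mouse of library 21, at 8211, lay apart from the other 4. The HD mean was 11340 ± 1811 against 15479 ± 1092 in Ctr (SD, n = 5 each), a log2 fold change of -0.46 with a standard error of 0.13. Without library 21 the log2 fold change was -0.35, still with all HD mice below all Ctr mice.

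Kif5a was also measured in other mice, those of the selenium groups, whose labels carry the same dose names. Se_Ctr mice had 15657, 15360, 14948, 15861 and 15839 normalized counts of Kif5a, Se_LD mice 16619, 15919, 18006, 14712 and 16821, and Se_HD mice 12748, 13135, 13266, 12406 and 12273. The Se_HD mice were all below the Se_Ctr mice and below the Se_LD mice, and they lay close together. The mean was 12766 ± 436 in Se_HD and 15533 ± 384 in Se_Ctr (SD, n = 5 each), and the log2 fold change was -0.28 with a standard error of 0.07. The exact two-sided permutation test gave p = 0.00794, the smallest value that 5 mice against 5 can give. This and the p-values that follow are not independent support, because the Se_HD mice may have entered the choice of Kif5a. In limma the unadjusted p was 0.000661 and the adjusted p over all genes was 1.00, so the contrast did not pass by that test, while DESeq2 on the recovered reads gave an adjusted p of 0.000994 and edgeR one of 0.695. When any 1 of the 15 selenium mice was left out, the log2 fold change stayed between -0.30 and -0.27.

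In order of its mean, Kif5a was highest in Se_LD, then Se_Ctr, Ctr and LD, and lowest in Se_HD and HD. The first 4 groups overlapped. Se_HD and HD did overlap with each other and with no other group, since the highest value of both was 13266 and the lowest in any other group was 13807. The log2 difference between LD and Ctr was -0.0037 with a standard error of 0.13, that between Se_LD and Se_Ctr was 0.08 with a standard error of 0.07, and that between Se_Ctr and Ctr was 0.01 with a standard error of 0.10. Among the 1803 genes that averaged 1000 or more, the log2 fold change of Kif5a was the 16th lowest in HD against Ctr and the 3rd lowest in Se_HD against Se_Ctr.

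**Figure D2:**
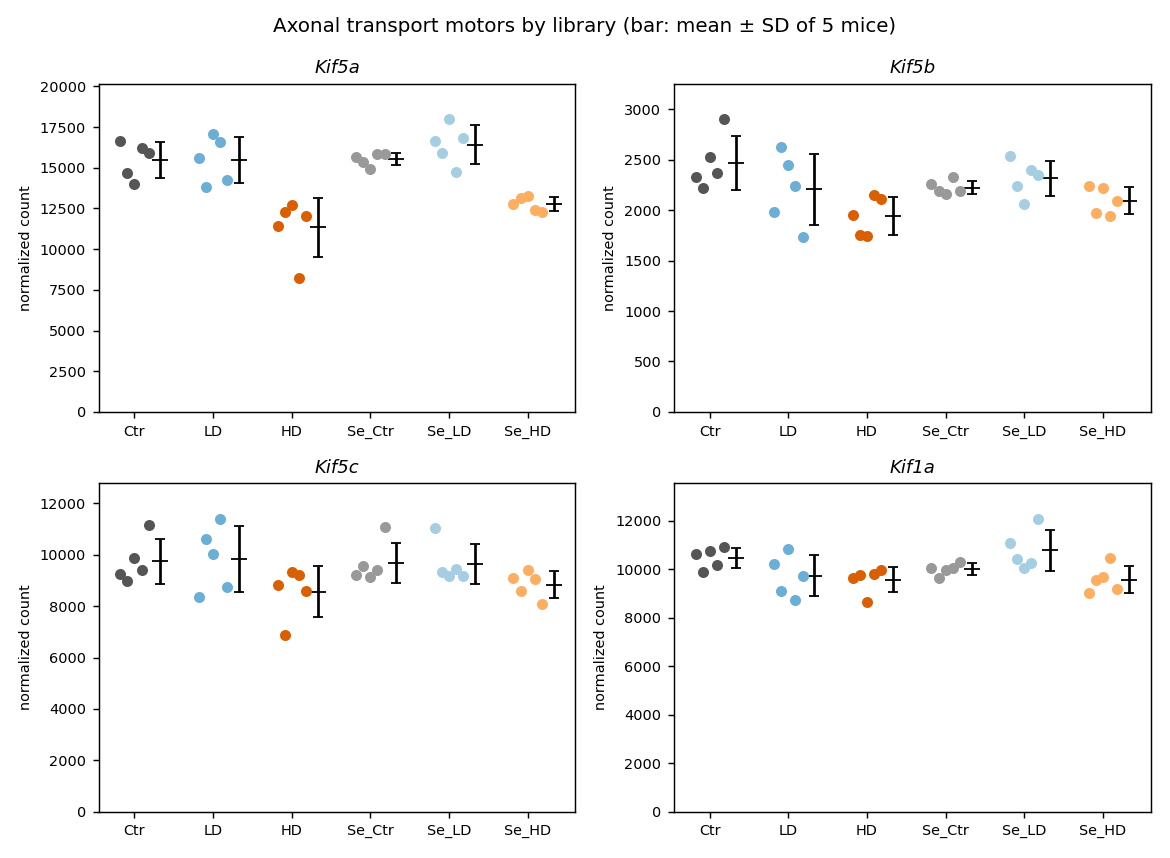
Normalized counts of the 4 axonal transport motors in each of the 30 libraries, with a point for each mouse and a bar for the mean ± SD of 5 mice; the axes start at 0. For Kif5a the HD and Se_HD points lie below all other groups, for Kif5b the HD points lie below the Ctr points, and for Kif5c and Kif1a the groups overlap.

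Markers of neurons and other cells were counted in the same libraries. The summed count of 6 pan-neuronal markers ranged from 52368 to 60842 in Ctr and from 40493 to 63901 in HD, and from 54952 to 60989 in Se_Ctr and 46871 to 59607 in Se_HD. None of the 6 passed an unadjusted limma p of 0.05 in either contrast, and 5 of 6 were lower in HD and 6 of 6 in Se_HD. Such a p was met by 8.34% of all genes tested in HD, 4.19% in Se_HD and 3.01% in LD. Relative to the mean log2 level of these markers, Kif5a was lower by 0.34 in HD and by 0.22 in Se_HD on the log2 scale, and in both all 5 exposed mice were below all 5 controls. This setting was added after the data were seen. Of 8 markers of inhibitory and fast-spiking interneurons, all 8 were lower in HD and 3 of them (Gad1, Pvalb and Erbb4) had an unadjusted p under 0.05. Their summed count was 6644 to 8388 in HD and 8565 to 9971 in Ctr, without overlap. On the selenium diet it was 8236 to 10229 in Se_HD and 8420 to 9641 in Se_Ctr, and none of the 8 had an unadjusted limma p under 0.05. Markers of microglia, astrocytes and ependymal cells were higher in HD. The summed count of 7 microglia markers was 2684 to 6258 in HD against 2111 to 2305 in Ctr, and that of 5 astrocyte markers was 17664 to 54912 against 13971 to 16240. In Se_HD the same sums were 2226 to 2576 and 14497 to 16266, against 2013 to 2535 and 12756 to 15264 in Se_Ctr. All 7 microglia markers and 3 of the 5 astrocyte markers had an unadjusted limma p under 0.05 in HD, against 0 and 1 in Se_HD. Of 7 markers of ependymal cilia, all 7 were higher in HD and 5 of them had such a p, with a median log2 fold change of 1.00, and in LD all 7 were higher and 3 had such a p, with a median of 0.85. Their sum was 330.0 to 542.5 in HD and 233 to 511 in LD, against 97.8 to 417 in Ctr. In Se_HD all 7 were higher too and none had such a p. None of 6 oligodendrocyte markers had one on either diet, with sums of 27012 to 44338 in HD and 33301 to 43692 in Ctr. The part of any of these cell types in the values of Kif5a was not tested.

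Kif5b is the heavy chain found in most cell types. Its normalized counts were 2327, 2224, 2523, 2369 and 2905 in Ctr, 1985, 2623, 2442, 2236 and 1738 in LD, and 1954, 1756, 1749, 2151 and 2112 in HD. The HD mice were all below the Ctr mice, and the LD mice spread over both. The log2 fold change of HD against Ctr was -0.34 with a standard error of 0.11 (unadjusted limma p = 0.00623, adjusted p = 0.292; exact permutation p = 0.00794). Without library 21 it was -0.38, so that this difference did not rest on that library.

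On the selenium diet the groups of Kif5b overlapped. The values were 2259, 2192, 2159, 2325 and 2186 in Se_Ctr, 2535, 2237, 2064, 2394 and 2346 in Se_LD, and 2235, 1973, 2217, 1944 and 2094 in Se_HD. The log2 fold change of Se_HD against Se_Ctr was -0.09 with a standard error of 0.06 (unadjusted limma p = 0.171, exact permutation p = 0.111). The difference between the diets was 0.25 with a standard error of 0.13 and had an unadjusted limma p of 0.0576 and an adjusted p of 0.997. This call turned on single mice: when each of the 30 mice was left out in turn, the unadjusted limma p ranged from 0.0325 to 0.138 (adjusted p 0.999 without library 21) and was under 0.05 for 7 of them, those of libraries 1, 7, 8, 21, 24, 26 and 27.

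Kif5c is the third kinesin-1 heavy chain, and is enriched in neurons. It had 9238, 8989, 9870, 9422 and 11179 normalized counts in Ctr and 8811, 6866, 9317, 9223 and 8610 in HD, and 9205, 9578, 9141, 9409 and 11066 in Se_Ctr and 9100, 8582, 9399, 9066 and 8067 in Se_HD. The groups overlapped on both diets, with 3 of 5 HD mice and 4 of 5 Se_HD mice below all of their controls. In HD the log2 fold change was -0.19 with a standard error of 0.12 (unadjusted limma p = 0.128, adjusted p = 0.741, exact permutation p = 0.0476), and in Se_HD it was -0.13 with a standard error of 0.08 (unadjusted limma p = 0.104, adjusted p = 1.00, exact permutation p = 0.0397). Averaged over the diets the log2 fold change was -0.16 with a standard error of 0.07 (adjusted p = 0.469 by limma). Before adjustment, the exact permutation p of Kif5c was thus under 0.05 on both diets, while limma's was so in their average (0.0274) and on neither diet alone. Single mice moved these values: the log2 fold change was -0.11 in HD without HD library 9 and -0.08 in Se_HD without Se_Ctr library 28, and the average no longer had an unadjusted limma p under 0.05 when library 9, 25, 28 or 30 was left out.

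Kif1a, the kinesin-3 motor of synaptic vesicle precursors, did not pass limma's test on either diet. It had 10643, 9892, 10735, 10174 and 10909 normalized counts in Ctr and 9653, 9749, 8651, 9818 and 9964 in HD, where 4 of the 5 exposed mice were lower than any Ctr mouse. The log2 fold change was -0.13 with a standard error of 0.10 (unadjusted limma p = 0.205, exact permutation p = 0.0159). On the selenium diet the log2 fold change was -0.06 with a standard error of 0.07, and the range of Se_HD, 9000 to 10465, enclosed that of Se_Ctr, 9643 to 10301.

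The 3 heavy chains were also set against each other by length. Kif5a made up 57.6% ± 2.73 of their summed count per kb in Ctr and 53.4% ± 6.12 in HD, with a range of 43.6% to 60.4% in HD (SD, n = 5 each). The 43.6% was that of library 21, without which the HD mean was 55.8% and the difference from Ctr shrank from -4.21 to -1.76 percentage points. In Se_Ctr its share was 58.3% ± 1.30, from 56.1% to 59.4%, and in Se_HD 55.6% ± 1.13, from 54.6% to 57.1%, a difference of -2.74 percentage points with an exact permutation p of 0.0238. The share of Kif5b was 7.59% ± 0.332 in Se_Ctr and 8.27% ± 0.470 in Se_HD (exact permutation p = 0.0397), and that of Kif5c was 34.1% ± 1.63 and 36.2% ± 1.15 (exact permutation p = 0.0556). In HD the share of Kif5b differed from Ctr by 0.07 percentage points (exact permutation p = 0.913) and that of Kif5c by 4.1 (exact permutation p = 0.111). The 3 shares make up a whole, so a lower share of Kif5a raises the others. The count of Kif5b itself was lower in Se_HD, with a log2 fold change of -0.09. The share of Kif5a was thus lower on average in Se_HD than in Se_Ctr, with overlapping groups. Its p there carries the same limit from the choice of Kif5a.

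Promoter sequences were looked up for the members in RefSeq's GRCm38.p6 table, which held 34 of the 43. That of Kif5c is shown, as the promoter of a kinesin-1 heavy chain in that table. It is the plus strand of chr2:49619036-49619335 on GRCm38.p6, from 250 bases before to 50 bases after the annotated start, with the matches to 3 of 4 motifs searched in capitals.
Kif5c promoter: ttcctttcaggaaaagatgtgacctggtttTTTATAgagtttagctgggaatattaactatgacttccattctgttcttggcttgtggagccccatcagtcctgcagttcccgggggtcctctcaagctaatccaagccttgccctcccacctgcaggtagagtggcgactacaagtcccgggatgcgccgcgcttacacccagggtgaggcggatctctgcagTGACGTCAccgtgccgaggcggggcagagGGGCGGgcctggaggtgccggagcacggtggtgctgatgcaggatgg
The motifs were searched on both strands. The cyclic AMP response element TGACGTCA is met once, 26 bases before the start, and 1.79% of the 32851 promoters in the table hold it. The GC box GGGCGG is met once and is held by 35.7% of promoters, the TATA box TATAAA is met once, 220 bases before the start and on the reverse strand, and is held by 13.6%, and the CCAAT box CCAAT is not met and is held by 37.4%. These matches describe the letters of this window.

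The light chains couple the heavy chains to their cargo. Klc1 and Klc2 were the main light chains, with means of 2595 and 971.6 normalized counts, Klc4 had 154 and Klc3, which is best known from testis, had 9.04. Klc2 had 1222, 1096, 737, 1085 and 983 normalized counts in Ctr and 785, 906, 970, 526 and 862 in HD. The groups overlapped, because the Ctr mouse of library 13 lay below 4 HD mice, and the lowest HD value was again that of library 21. For Klc2 the log2 fold change was -0.35 with a standard error of 0.16 (unadjusted limma p = 0.0363, adjusted p = 0.551, exact permutation p = 0.103), and without library 21 it was -0.20 (unadjusted limma p = 0.148). The call was also lost without library 1, 3, 7 or 19.

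On the selenium diet the values of Klc2 overlapped. Se_Ctr mice had 968, 1048, 1014, 1070 and 961.5 normalized counts and Se_HD mice 868, 967, 1036, 1081 and 954, with a log2 fold change of -0.05 and a standard error of 0.10. For Klc1 the log2 fold change was -0.09 with a standard error of 0.11 in HD and -0.08 with a standard error of 0.07 in Se_HD. For Klc4 it was -0.07 with a standard error of 0.14 and -0.06 with a standard error of 0.09. For Klc3, at 2 to 19 reads per library, it was 0.01 with a standard error of 0.38 and 0.02 with a standard error of 0.38, too wide to place it.

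Kifc2 was likewise low in library 21. It had 3040, 2426, 2025, 2360 and 2236 normalized counts in Ctr and 1977, 2538, 1594, 1210 and 2185 in HD, and the lowest value of all 30 libraries was that of library 21. The groups overlapped. In HD the log2 fold change was -0.38 with a standard error of 0.16 (unadjusted limma p = 0.0266, adjusted p = 0.502, exact permutation p = 0.119), and -0.23 without library 21 (unadjusted limma p = 0.109). Without library 1 or 15 it also lost its call. In Se_HD the log2 fold change of Kifc2 was -0.03 with a standard error of 0.08.

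**Figure D3:**
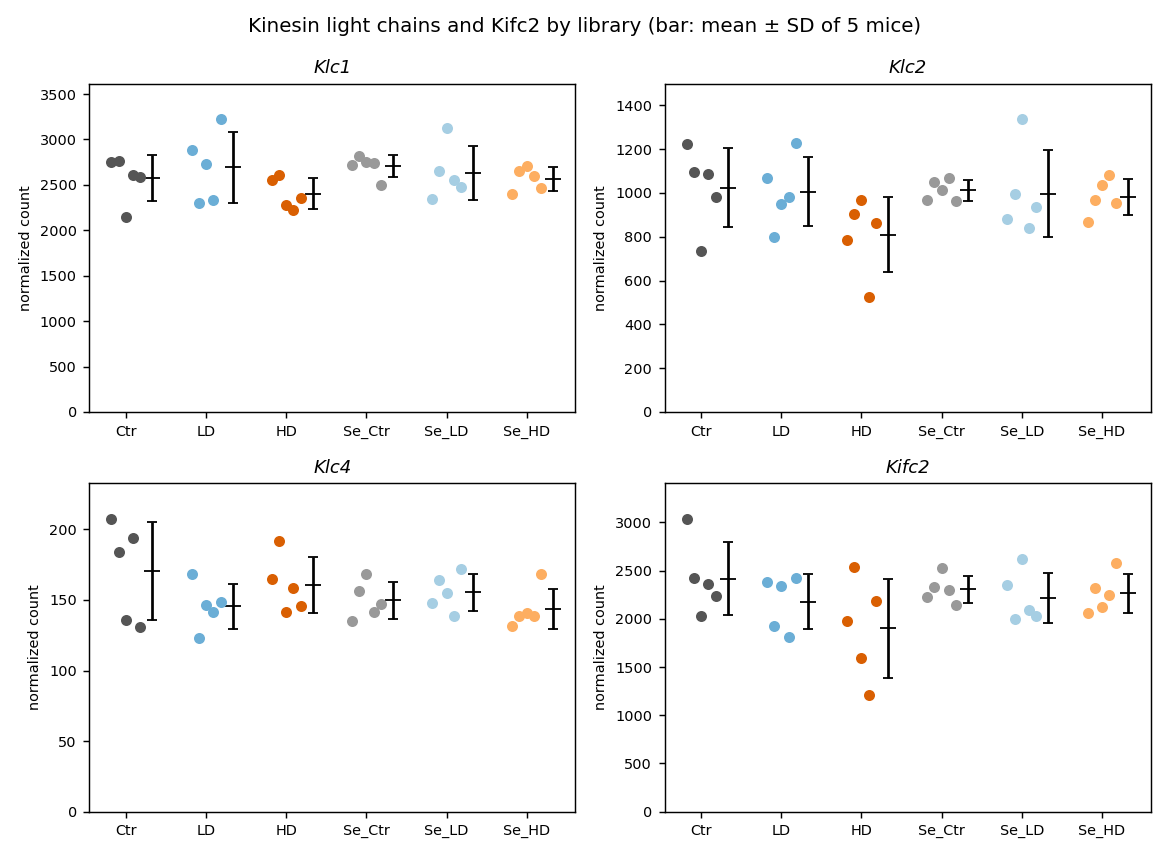
Normalized counts of Klc1, Klc2, Klc4 and Kifc2 in each of the 30 libraries, with a point for each mouse and a bar for the mean ± SD of 5 mice; the axes start at 0. The lowest points of Klc2 and Kifc2, at 526 and 1210, are HD library 21, and the Se_HD points overlap the Se_Ctr points in all 4 panels.

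The other transport kinesins did not pass at an unadjusted limma p of 0.05 in HD against Ctr. Of the 4 kinesin-2 genes (Kif3a, Kif3b, Kif3c and Kif17), which drive transport in cilia and dendrites, and of the 7 kinesin-3 genes, none had such a p on either diet. The share of all genes tested with such a p was 8.34% in HD and 4.19% in Se_HD. By the exact permutation test in HD, Kif1a had the p of 0.0159 given above and Kif16b, an endosome motor, had p = 0.0476. Kif1b, a motor of mitochondria and synaptic vesicle precursors, had a log2 fold change of -0.02 in HD and 0.05 in Se_HD. Kif3a had 0.05 and -0.09, and Kif2a, which trims microtubule ends in growing axons, had 0.03 and 0.07. Of the 5 kinesin-4 genes, Kif21b, a slow motor that limits microtubule growth in neurons, was the one with an unadjusted limma p under 0.05, in Se_HD. It had 816, 675, 794, 899 and 629 normalized counts in Se_Ctr and 609.5, 730.3, 577, 759 and 596 in Se_HD, and the groups overlapped. This gave a log2 fold change of -0.22 with a standard error of 0.10 (unadjusted limma p = 0.0469, adjusted p = 1.00, exact permutation p = 0.127), against 0.02 with a standard error of 0.11 in HD. The call of Kif21b was lost in 8 of 15 fits that left out 1 mouse, those of libraries 4, 6, 11, 16, 18, 22, 23 and 30.

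A further 8 members of other roles, in cilia (Kif6, Kif7, Kif9, Kif19a and Kif27) and elsewhere (Kif26a, Kif26b and Kifc3), had no unadjusted limma p under 0.05 on either diet, beside the same shares of all genes. Their log2 fold changes lay between -0.23, for Kif19a, and 0.19, for Kif26a, in HD, and between -0.30, for Kif19a, and 0.08, for Kif26b, in Se_HD.

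The whole family was then counted. In HD against Ctr, 4 of the 42 members other than Kif5a (9.52%) had an unadjusted limma p under 0.05, where 8.34% of the 20031 genes tested did. They were Kif5b, Klc2 and Kifc2, which were lower, and Kif2c, which was higher. Lower genes made up 3 of the 42 (7.14%) and 3.26% of all genes tested. Of the 42, 1 (2.38%), Kif5b, had every HD mouse below every Ctr mouse, as had 0.734% of all genes. None had an adjusted p under 0.05 in limma, as 0.13% of genes had. edgeR and DESeq2 gave the same 4 members at the unadjusted threshold, against 8.66% and 7.93% of genes, and none at the adjusted one, against 0.225% and 1.22% of genes. Without HD library 21, limma left Kif5b alone at the unadjusted threshold. The exact permutation test gave a p under 0.05 for 4 of the 42 (9.52%), Kif5b, Kif5c, Kif1a and Kif16b, against 7.35% of genes. The median log2 fold change of the 43 members was 0.02, that of all genes 0.01, and 18 members were lower and 25 higher, where 48.8% of all genes were lower.

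In Se_HD against Se_Ctr, 4 of 43 members (9.30%) had an unadjusted p under 0.05, against 4.19% of the 19679 genes tested. All 4 were lower (Kif5a, Kif21b, Kif18a and Kif2c), where 1.76% of all genes were lower at that threshold. Of these, Kif5a was named in the choice of the family, and Kif18a and Kif2c averaged 14.3 and 2.64 normalized counts. The shares of members thus rest in part on a chosen gene and on low counts. Kif5a was the only member with every Se_HD mouse below every Se_Ctr mouse, as were 0.32% of all genes. edgeR gave the same 4 against 4.26% of genes, and DESeq2 gave 2, Kif5a and Kif21b, against 3.14%. None had an adjusted p under 0.05 in limma or in edgeR, where 0.0% of genes had one in either, and 1, Kif5a, had in DESeq2, where 0.0203% of genes had. The exact permutation test gave a p under 0.05 for 4 (9.30%), Kif5a, Kif5c, Kif18a and Kif2c, against 4.72% of genes. The median log2 fold change of the members was -0.03 and that of all genes -0.01, and 26 members were lower and 17 higher, where 51.8% of all genes were lower.

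**Figure D4:**
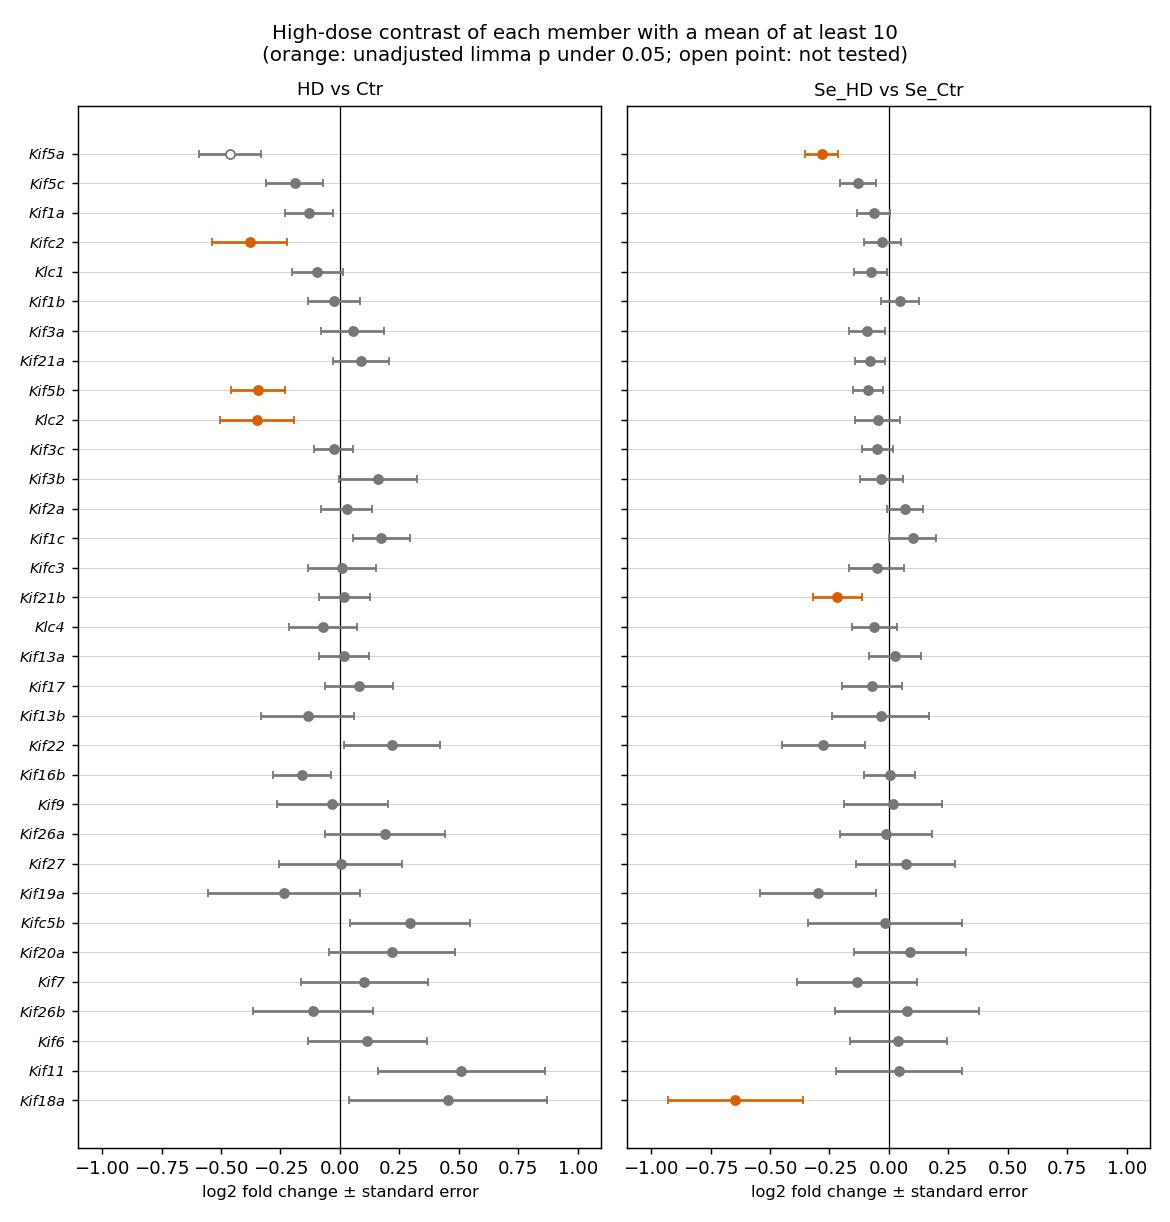
Log2 fold change with its standard error for the 33 members that averaged 10 or more, in HD against Ctr (left) and in Se_HD against Se_Ctr (right), ordered by level per kb. Orange points have an unadjusted limma p under 0.05, and the open point of Kif5a on the left was not tested; Kif5a lies at -0.46 and -0.28, and Kif18a at the foot has the lowest point on the right, at -0.65.

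At the low dose no member passed the test in limma. In LD against Ctr 0 of 43 members had an unadjusted p under 0.05, against 3.01% of all genes, and 0 and 0.0% had an adjusted one. edgeR and DESeq2 gave 0 members at the unadjusted threshold, against 2.77% and 1.98% of genes. In Se_LD against Se_Ctr the members were again 0 at either threshold, against 3.31% and 0.0% of all genes. At the unadjusted threshold edgeR gave 2 (4.65%), Kif13a and Kif13b, against 3.45% of genes, and DESeq2 gave 1 (2.33%), Kif13b, against 2.49%. Selenium alone, Se_Ctr against Ctr, gave 0 of 43, against 4.0% and 0.0% of all genes, and 0 at the unadjusted threshold by edgeR and DESeq2, against 4.36% and 3.1%. The exact permutation test, before adjustment, gave a p under 0.05 for 0 of 43 members in LD, against 2.96% of all genes, for 1 (2.33%) in Se_LD, against 3.44%, and for 2 (4.65%) in Se_Ctr against Ctr, against 4.32%. These were Kif1a in Se_LD (log2 fold change 0.10, exact permutation p = 0.0476) and Kif5b and Kif24 in Se_Ctr (-0.15 and -0.63, p = 0.0317 each), all with overlapping groups. The Se_Ctr level of Kif5b enters its difference between the diets given above. The log2 fold changes of the 4 axonal motors in these comparisons lay between -0.17, for Kif5b in LD, and 0.10, for Kif1a in Se_LD.

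Using all 30 libraries, HD and Se_HD were averaged against their controls. In this contrast 4 of the 42 members other than Kif5a (9.52%) had an unadjusted limma p under 0.05, against 9.09% of the 21383 genes tested, and all 4 were lower, against 3.81% of genes. They were the heavy chains Kif5b and Kif5c, the light chain Klc2 and the minus-end motor Kifc2, and of these Kif5b alone kept such a p in all 30 fits that left out 1 mouse. Kif5c lost it in 4 of them, Kifc2 in 6 and Klc2 in 18, the last 2 also without HD library 21. edgeR gave 2, Kif5b and Kif5c, against 9.81% of genes, and DESeq2 gave 3, these and Kif1a, against 8.6%. None of the 42 had an adjusted p under 0.05 in limma, as 0.21% of genes had. For Kif5b the averaged log2 fold change was -0.22 with a standard error of 0.06 (adjusted p = 0.189 by limma). For Kif5a it was -0.37 with a standard error of 0.07, given as a description. The contrast shares its mice with the 2 contrasts above and does not add to them.

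Over the 6 groups, 2 of the 42 members (4.76%), Kif5b and Kif2c, passed limma's F test at an unadjusted p of 0.05, against 6.91% of genes, and none at an adjusted one, as 0.444% of genes did. The effect of the high dose differed between the diets at an unadjusted p in 2 of the 42 (4.76%), Kif18a and Kif2c, against 4.77% of genes, and at an adjusted p in 0, against 0.0% of genes. For Kif5a the difference between the diets was 0.18 with a standard error of 0.14 on the log2 scale.

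The cell division kinesins were a list of 14 members, most of which act in mitosis or cytokinesis. Their summed normalized count was 171.5, 152, 172, 163.5 and 176 in Ctr and 163, 207, 188, 388.5 and 155 in HD. The value of 388.5 was that of library 21, and of the other HD mice 2 lay above all Ctr mice, at 207 and 188, and 2 within the range of Ctr. On the selenium diet the sum was 162, 147, 183, 172 and 127 in Se_Ctr and 134, 126, 130, 161.5 and 166 in Se_HD. The mean difference between HD and Ctr was 53.4 counts, and 11.4 without library 21, a setting added after the data were seen.

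In library 21, 10 of the 14 had their highest value of all 30 libraries, as had 1 of the 29 other members. The share over all genes was not counted. Kif18a, which dampens chromosome movement at the metaphase plate, had 64.5 normalized counts there and 5.45 to 18.1 in the other 29 libraries. Kif11, the motor that pushes the spindle poles apart, had 45.7 there and 6.74 to 20.8 in the others. Kif15, its backup in spindle assembly, had 29.4 there and at most 15.3 in the others. Kif20a, Kif24, Kifc1 and Kifc5b were not highest in it. In the same library the 8 markers of dividing cells summed to 537, against 53.2 to 152.5 in the other HD mice and 53.1 to 66.4 in Ctr, with 188 counts of the proliferation marker Mki67. The library also had the highest astrocyte (54912) and microglia (6258) sums of the HD group. Its pan-neuronal (40493), interneuron (6644) and oligodendrocyte (27012) sums were the lowest of that group. Kif5a, Klc2 and Kifc2, 3 of the 43 members, had their lowest value of all 30 libraries in it. The part of these in one another was not tested.

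**Figure D5:**
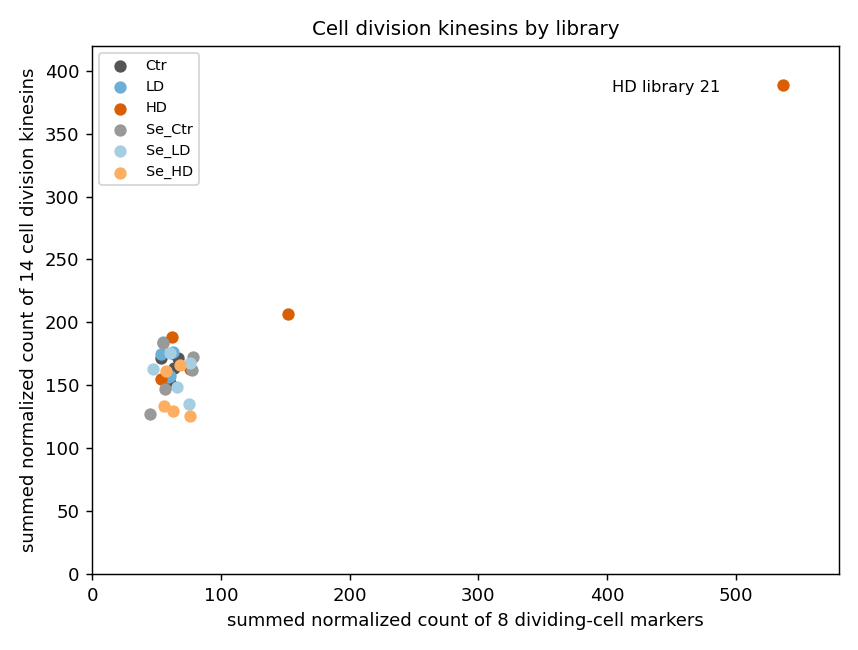
Summed normalized count of the 14 cell division kinesins against the summed normalized count of 8 dividing-cell markers, with a point for each of the 30 libraries. HD library 21 stands apart at 537 and 388.5, while the other libraries lie at or below 152.5 and 207.

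Kif2c, a cell division kinesin which depolymerizes microtubules at the kinetochore, had the lowest unadjusted p of the members for the difference between the diets. It falls outside the rule for named genes because of its low level and was chosen after its values were seen. In HD it had 4.82, 7.50, 4.04, 17.1 and 0 normalized counts and in Ctr 2.42, 0, 0, 3.78 and 0 (exact permutation p = 0.0714). In Se_HD it had 0, 1.53, 0, 0 and 1.14 and in Se_Ctr 1.66, 3.80, 1.73, 4.69 and 0.896 (exact permutation p = 0.0397). The groups overlapped on both diets. The difference between the diets had an unadjusted limma p of 0.000928 and an adjusted p of 0.472, at 0 to 21 reads per library, and the share of members with such an unadjusted p was that of all genes, as given above.

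Kif18a had 11.2, 7.62, 5.45, 10.4 and 13.7 normalized counts in Se_HD and 16.6, 14.2, 13.8, 17.6 and 13.4 in Se_Ctr. Kif18a thus had a log2 fold change of -0.65 with a standard error of 0.28 (unadjusted limma p = 0.0342, adjusted p = 1.00, exact permutation p = 0.0159), and the limma call was lost without library 4, 12, 18 or 22. In HD it was 0.45 with a standard error of 0.42, and -0.02 without library 21. For Kif11 it was 0.51 with a standard error of 0.35 in HD, 0.17 without library 21, and 0.04 in Se_HD. For Kif22, a chromosome-binding motor, it was 0.22 with a standard error of 0.20 in HD, 0.11 without library 21, and -0.28 with a standard error of 0.17 in Se_HD. None of these passed an adjusted threshold.

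The rest of the transport machinery was taken from a list of 55 genes, of which 54 were in the table. Of the 24 cargo adaptors, which link motors to mitochondria and vesicles, 0 had an unadjusted limma p under 0.05 in HD or Se_HD, and their median log2 fold changes were -0.07 and -0.04. Of all genes tested, 8.34% in HD and 4.19% in Se_HD had such a p, and lists this short can hold none at those shares. Kifap3, the adaptor of kinesin-2, had -0.13 in HD and -0.05 in Se_HD, and Trak1, the mitochondrial adaptor of kinesin-1, had -0.11 and 0.02. Of 12 dynein genes tested in HD, the motor towards the cell body, 1 had such a p, Dynlt1b with a log2 fold change of 1.68, and of 13 in Se_HD none had. Dynlt1b is 1 of several near-identical copies, so that its counts are uncertain. Dync1h1, the dynein heavy chain, had -0.08 and -0.02. Of 17 dynactin and regulator genes none had such a p on either diet.

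The genes most like Kif5a were sought over the 30 libraries, by Pearson correlation of the log2 level minus the mean of the group, among the 11096 genes that averaged 50 or more. The 5 highest were Faim2 (r = 0.86), Extl1 (0.85), Fxyd7 (0.85), Camkk2 (0.85) and Slc12a5 (0.85), and without library 21 their r was between 0.61 and 0.65. Klc2 was the highest member (r = 0.70, 79th of all genes) and Kifc2 the next (0.56), but without library 21 their r was 0.50 and 0.19 and Kif1c was the highest with 0.57, so that the order of members rested on that library. Kif5c (-0.05), Kif1a (0.0022) and Kif5b (-0.20) did not follow Kif5a from mouse to mouse. All points share the library size factors and the makeup of each dissected hippocampus, and these values are a description.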

How the data were processed

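Hippocampus RNA of 30 mice was sequenced by the authors as stranded single-end libraries of 75 bp reads, which they trimmed with Trim Galore 0.4.2, aligned with HISAT2 to NCBIM37 and counted per gene with featureCounts, with the strand setting not given in the sources used here. The deposited values are a signal that the authors made by dividing the counts by DESeq2's size factors, after dropping genes under 10 reads in all. Every value came out as a whole number of reads (100% within 0.1), and reads were recovered for count tests. Symbols and exon lengths come from the GENCODE annotation of the same build.

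limma 3.58.1 (R 4.3.3) was run with a trend on log2(normalized count + 1), over the 15 libraries of a diet or over all 30, for genes with a sum of at least 10. P-values were adjusted by the Benjamini-Hochberg method across every gene tested. edgeR 4.0.16 and DESeq2 1.42.0 on recovered reads were among the alternatives, with other pseudocounts, filters and normalizations, a covariate for blocks of 6 successive library numbers, and leaving out each mouse. P-values measure the spread between mice of this trial. On simulated HD against Ctr counts, with 200 genes changed by 0.5 on the log2 scale, limma recovered 166 of the 200 at an unadjusted and 40 at an adjusted p under 0.05, beside 971 and 2 false calls among the 19844 genes tested. The members and all lists were chosen with earlier results of these data known, and Kif5a was left out of counts in contrasts with the HD and Ctr mice. It was kept in the counts of Se_HD against Se_Ctr. Named members are the axonal motors, the light chains, those with an adjusted p under 0.05, the 6 lowest unadjusted p in HD, in Se_HD and in their average among members with a mean of at least 10, and the 3 highest per kb. Tables and figures were made with pandas 2.3.3 and matplotlib 3.10.9. The proteomic data were not analysed here.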

Additional observations from a re-analysis of the deposited data

Results flagged for a closer look

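Single mice stood apart from the other 4 of their group by Dixon's ratio, the gap to the nearest mouse over the range of the group, at the 95% critical value of 0.71. Of 90 groups compared this held for 11, where chance gives about 4.5. In HD library 21 it held for Kif5a (ratio 0.713), Kif18a (0.869) and the summed count of the cell division kinesins (0.78). Kif5c stood apart in HD library 9 (0.711, the lowest at 6866), Se_Ctr library 28 (0.773, the highest at 11066) and Se_LD library 5 (0.848, the highest at 11046). Kif1a was low in HD library 15 (0.763), Klc1 in Ctr library 13 (0.714), Kif18a in Ctr library 19 (0.89) and Kif21b in Se_LD library 17 (0.766), and Klc4 was high in Se_HD library 30 (0.747).

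The effect of the high dose differed between the diets at an unadjusted p in 2 of 42 members (4.76%, against 4.77% of all genes) by limma's interaction over all 30 libraries, which is not an exact test, namely Kif18a (unadjusted p = 0.0416) and Kif2c (unadjusted p = 0.000928), both higher in HD than in Ctr and lower in Se_HD than in Se_Ctr on average. Neither passed an adjusted p. Without HD library 21, Ctr library 19, Se_Ctr library 4 or 22, or Se_HD library 12 or 18, Kif18a no longer had an unadjusted p under 0.05, while Kif2c kept one, and without HD library 27 Kif2c had an adjusted p under 0.05.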

How the results depend on the processing

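Of 422 values under other settings, leaving out mice not counted, 404 kept their direction and side of the threshold or stayed within 1.5 times, 17 moved, 1 passed a threshold it had not passed, and none reversed. Counts are of members with an unadjusted p under 0.05 unless said, without Kif5a where HD and Ctr mice enter the contrast. Shares of all genes are given above for edgeR and DESeq2, and not for the other settings or the fits without 1 mouse. With the F test also required, HD gave 1 and Se_HD 2. Without the trend HD gave 2, Se_LD 1 and the average over diets 2. With a mean of at least 10, Se_HD gave 2 and the interaction 1. DESeq2 gave 2 for Se_HD and 1 for Se_LD, and at an adjusted p 1 for Se_HD, where Kif5a had a log2 fold change of -0.283. The single fit of 30 libraries gave 2 for Se_HD and 1 for Se_LD. edgeR gave 2 for Se_LD and 2 for the average, quantile normalization 2 for the average, and pseudocounts of 0.1 and 10 gave 1 each for Se_Ctr against Ctr. The causes were not tested.

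Leaving out 1 mouse gave 1 to 5 members in HD, the 1 (Kif5b) without HD library 21 and 2 without Ctr library 1. It gave 0 to 1 in LD (Kif5b without LD library 8), 2 to 4 in Se_HD (2 without Se_Ctr library 4 or 22 or Se_HD library 18), 0 to 3 in Se_LD (3 without Se_LD library 23, 2 without Se_LD library 5 or 17, 1 without library 4, 6, 16, 22 or 28) and 0 to 3 in Se_Ctr against Ctr (3 without Ctr library 19, 1 without library 16 or 25). The average gave 2 to 4 (2 without library 6, 16, 21, 25 or 30), the 6 groups 2 to 4 (4 without Ctr library 13) and the interaction 1 to 4 (1 without library 4, 12, 18, 19 or 22, and 4 without library 9, 13, 24 or 27). Adjusted counts stayed at 0, but for 1 (Kif2c) in the interaction and over the 6 groups without HD library 27. Kif5a ranged from -0.509 to -0.351 in HD and from -0.297 to -0.269 in Se_HD. The labels number libraries and do not name pairs of mice, so no pairs were used. Each block of 6 successive library numbers held a library of every group. With a covariate for these blocks, HD gave 4 members and Se_HD 4.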
